A study of Saccharomyces cerevisiae with 9 samples.

Results

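The short intergenic regions between convergent protein-coding genes of the yeast Saccharomyces cerevisiae were examined as places where the 3′ ends of RNAs from opposite strands meet. A region was taken wherever the end of a plus-strand gene was followed, as the next protein-coding feature on the chromosome, by a minus-strand gene after a gap of 0 to 300 nt. This rule used coordinates alone and found 990 pairs, that is 1980 member genes of 6076 protein-coding features and 990 of 5738 intervals between neighbouring protein-coding features. The gaps ran from 3 to 300 nt, with a median of 167 nt and quartiles of 114 and 229 nt. In 944 pairs both genes carried a locus tag in the reference annotation, and for all 1934 tagged members the annotated gene edge was the end of the stop codon, so that the distance from that edge to a read end is the length of the 3′ untranslated region (UTR) and a few more nucleotides at most.

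The study read polyadenylated RNA molecules directly, without copying into cDNA, on Oxford Nanopore flow cells, and compared 3 strains, each grown with rapamycin for 2 h and each sequenced as 3 libraries. The strain called WT was the anchor-away parent HHY168 fpr1delta::hphMX4, which lacks the rapamycin-binding protein Fpr1. Bdp1AA carried BDP1-FRB::kanMX6 in that parent, and Bdp1AA Rna15AA carried BDP1-FRB::kanMX6 and RNA15-FRB::His. In the anchor-away method rapamycin links an FRB-tagged nuclear protein to an abundant anchor protein that leaves the nucleus, so the 2 latter strains were depleted of nuclear Bdp1, or of nuclear Bdp1 and Rna15. All 3 strains shared the FPR1 deletion and the drug. No strain with the Rna15 tag alone was analysed here, so what Rna15 depletion does in cells with Bdp1 in the nucleus cannot be told apart from what it does without.

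Bdp1 belongs to TFIIIB, which recruits RNA polymerase III to tRNA genes and can stop a polymerase II that runs into it. Rna15 is the RNA-binding subunit of cleavage factor IA, which, together with Hrp1, the protein that binds the UA-rich efficiency element, and the cleavage and polyadenylation factor, places the 3′ ends of yeast mRNAs. Where genes converge, both RNAs must end within the same stretch of DNA, and in yeast many such RNAs are known to overlap in their 3′ UTRs.

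The sequences at which the strands meet are shown first, to show where the TATATA motif described below stands. Each line gives 30 bases of the plus strand centred on the midpoint between the read-weighted median ends of both genes in WT, from the RefSeq R64 genome, with each match to TATATA in capitals. This motif is its own reverse complement, so it stands in the same place for both RNAs. The first 8 pairs were those with the most reads in the less-read gene, both genes having a locus tag in the reference, among the 542 whose UTRs overlapped by 60 to 130 nt; 5 of them held the motif and 3 did not, and 229 of the 542 held it.
UTH1/SHB17, chrXI:520789-520818 (+): ctagatattatcaTATATAgcatattatat
FCY1/YPR063C, chrXVI:677666-677695 (+): tatttaatttTATATAtttgtgcatacact
INA1/PUN1, chrXII:953267-953296 (+): tgaattgTATATAgacaatatattttaatc
VMA16/RPN1, chrVIII:161630-161659 (+): aagtaagagaaaaaaatgtacaacTATATA
PHO13/YPD1, chrIV:33312-33341 (+): tgtatgatttgatatacaTATATATATATA
VMA21/VOA1, chrVII:698931-698960 (+): tatgcaaataacccaatcttacatatgttt
MIS1/RPL19A, chrII:414094-414123 (+): taggtatatgtgcatacatacgtattatcg
ALB1/RPE1, chrX:190329-190358 (+): tatagtatagagagtataaatataagaaat

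In contrast stand 4 pairs whose RNAs ended close to each other or apart in WT, none of which held the motif in this window. They are the pair with the most reads by its less-read gene and 3 of the 5 pairs with the widest separation.
RPS14B/RPS22A, chrX:74721-74750 (+): cgtgcatgcagaaatgcggcagataaattc
PUF4/PDR1, chrVII:468955-468984 (+): actggtaaatagtgttgaagaaataagaga
RCL1/MDM12, chrXV:309188-309217 (+): gtcatctaaaatatcatcaaagagcgtatg
BIR1/GRR1, chrX:590692-590721 (+): atcttctgtggacgtgacaacgttacgtat

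The deposited values came as 1 pooled column per strain, so no difference below could be set against the spread between libraries, and no p-value is given. Intervals are exact 95% (Clopper-Pearson) intervals over genes, pairs or reads, and they cover counting error alone. The tables of WT, Bdp1AA and Bdp1AA Rna15AA held 22048431, 14096898 and 7020861 reads ending downstream of a gene, of which 5406715, 3238059 and 1781617 lay behind member genes. Positions below a signal of 0.83413, which equals 20, 17 and 11 reads in the 3 tables, were left out of each. A gene was used where at least 60 reads remained, as for 1792, 1574 and 996 members, so the Bdp1AA Rna15AA values describe the better-read part of the members. BDP1 and RNA15 themselves belong to no pair, and the anchor-away design moves the proteins, not their mRNAs. FPR1, labelled as deleted in every strain, was listed with 30 reads in WT, all at 95 nt past its end and short of the 236 nt gap to EAF7, and was not listed in either depletion strain.

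None of the 275 nuclear tRNA genes lay in any of the 990 gaps. Of the gaps, 3 contained copies of the 5S rRNA gene, which RNA polymerase III also transcribes (RDN5-3, RDN5-4 and RDN5-5). The gap of YGL088W/MMS2 contained snR10, a small nucleolar RNA gene.

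In WT, the UTRs of 704 of the 823 pairs with both genes measured overlapped at their median ends (85.5%, 83.0 to 87.9). The overlap had a median of 83 nt with quartiles of 42 and 100 nt. It was between 60 and 130 nt in 542 pairs, between 1 and 59 nt in 118 and above 130 nt in 44, while 119 pairs were separate. Among the 5 pairs with the most reads in WT, UTH1/SHB17 overlapped by 75 nt. Uth1 is a SUN-family protein of mitochondria and cell wall, and Shb17 is sedoheptulose-bisphosphatase; their median ends lay at 217 and 130 nt past the stop codons across a gap of 272 nt. The histone H2B gene HTB2 and ECM15 overlapped by 7 nt, and ATP19, for a subunit of mitochondrial ATP synthase, and the ribosome biogenesis gene BRX1 by 13 nt. The ribosomal protein genes RPS14B and RPS22A ended 49 nt apart by the same measure, and ARO2, for chorismate synthase, and RPL9A, for a large-subunit ribosomal protein, 12 nt apart (overlaps of -49 and -12 nt). Of these 5 pairs with very high read counts, none reached the median overlap of 83 nt.

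The overlap stayed near 90 nt whatever the gap, up to about 180 nt. In gaps of 0 to 60 nt the median overlap in WT was 92 nt, in gaps of 61 to 120 nt it was 91 nt, and in gaps of 121 to 180 nt it was 88 nt. The UTRs were longer in wider gaps: their medians were 65 nt on the plus strand and 63 nt on the minus strand in the first class, and 121.5 and 111 nt in the third. In wider gaps the distribution split, with a median overlap of 73 nt at 181 to 240 nt and 29 nt at 241 to 300 nt. All 38 pairs of the narrowest class overlapped, then 98.9%, 96.3%, 79.6% and 59.6% of pairs in the successive classes. Over the 823 pairs the gap and the summed UTR length had a Spearman correlation of 0.63, whereas the UTR lengths of the partners had -0.03. These describe the pairs of 1 pooled table, in which partners share the gap. At the limit of the rule, 30 of 61 measured pairs with gaps of 281 to 300 nt overlapped in WT, and 13 of 39 with gaps of 301 to 320 nt, just outside it.

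**Figure D1:**
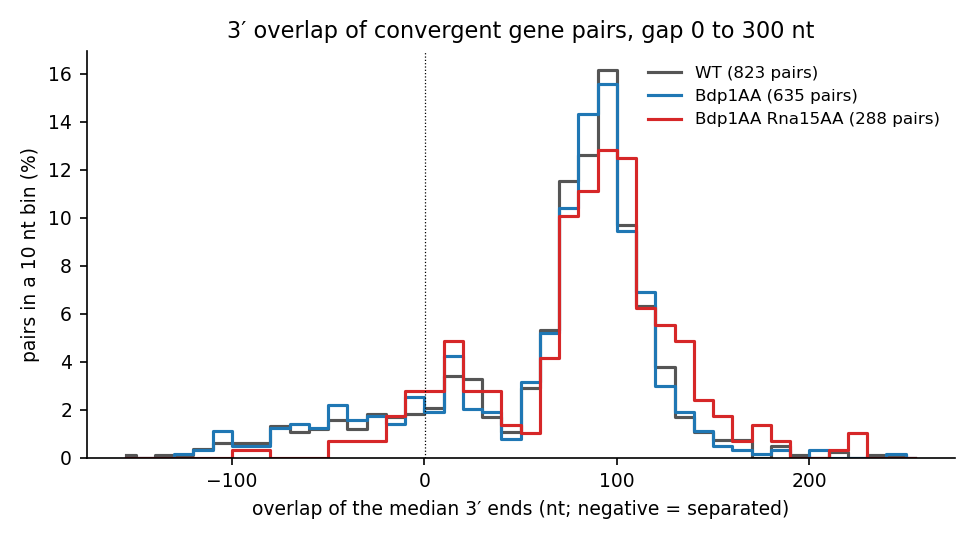
Share of measured convergent pairs (%) in each 10 nt class of overlap between the median 3′ ends of both genes, per strain, with negative values for separated ends. All 3 curves peak between 70 and 110 nt, and Bdp1AA Rna15AA has a smaller share of pairs below 0 nt.

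The 5 largest overlaps in WT rested on 67 to 187 reads of the less-read partner. The largest overlap was 765 nt for IDP3, the peroxisomal isocitrate dehydrogenase gene, and ASI3, of an inner nuclear membrane ubiquitin ligase, from 67 reads of IDP3. TGS1/PRM4 overlapped by 366 nt, NUF2/HST1 by 298 nt, RIM2/MED8 by 243 nt and IES5/TSC11 by 238 nt. NUF2, a kinetochore gene, and HST1, a histone deacetylase gene, both had 100% of their reads past the near edge of the other across a gap of 70 nt, with 103 and 485 reads. At the other end, PUF4, for an mRNA-binding protein, and PDR1, for a transcription factor of drug resistance, ended 158 nt apart. ECM10/BUD16, AHK1/YET3, RCL1/MDM12 and BIR1/GRR1 had overlaps of -136, -126, -117 and -112 nt.

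The motif stood at the centre of the overlap. TATATA occurred in the central 30-base window of 229 of the 542 WT pairs that overlapped by 60 to 130 nt (42.3%, 38.1 to 46.5). In windows of the same size shifted by 150 nt to the left or right it occurred in 0.554% and 1.11% of these pairs. It occurred in the centre of 6 of 118 pairs with an overlap of 1 to 59 nt (5.08%) and of 2 of 119 separate pairs (1.68%, 0.204 to 5.94). Over all pairs it occurred in 247 of 823. The A-rich hexamer AATAAA, searched on both strands of the same windows, which can share bases with TATATA, occurred in 11.4% of the 60 to 130 nt class, 26.3% of the 1 to 59 nt class and 13.4% of the separate pairs. The position of the window was set by the measured ends, so the contrast between classes describes these pairs and is not a test. In overlapping pairs the midpoint lies upstream of both median ends, and in separate pairs downstream of both. The classes thus sample different places relative to the ends. With gaps of at most 300 nt, windows shifted by 150 nt can lie in coding sequence, so they are no like control for the UTRs.

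**Figure D2:**
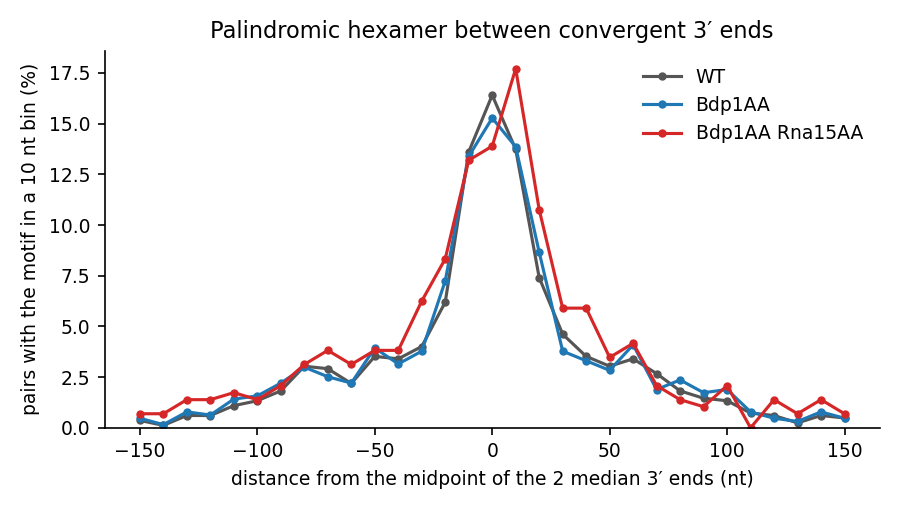
Share of measured pairs (%) whose TATATA hexamer is centred in each 10 nt bin around the midpoint of both median 3′ ends, per strain. In WT the share is 16.4% in the central bin and at most 1.34% from 100 nt outwards.

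The same motif was sought first in windows for which no read end was used. In the middle 30 bases of gaps of at least 30 nt and at most 300 nt it occurred in 164 of 976 convergent gaps (16.8%, 14.5 to 19.3), 47 of 837 tandem gaps (5.62%, 4.15 to 7.40) and 10 of 393 divergent gaps (2.54%, 1.23 to 4.63). Anywhere in the gap it occurred in 60.8%, 50.4% and 19.1%, with median gaps of 168, 235 and 240 nt. A further window was again set by measured ends: the 50 bases from 70 to 21 nt before the most used end, on the RNA strand. There the motif occurred for 45.2% of 1792 member genes (42.9 to 47.5) and 40.8% of 3249 other coding genes (39.1 to 42.5) in WT.

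The ends of these genes lay at almost the same places in Bdp1AA as in WT. Of 631 pairs measured in both tables, 566 (89.7%) kept their overlap within 10 nt of WT and the median change was 0 nt. RRT2/ENP1 and MGR3/ASC1 went from separate to overlapping, by 1 nt each in Bdp1AA from -20 and -3 nt in WT. The 5 pairs UBC9/SYO1, YGL036W/MIG1, TOM20/GCD2, CMP2/IMD4 and YMR090W/NPL6 went the other way. These 7 pairs are named because they are few, and were chosen after their values were seen. The median overlap was 83 nt in both strains, and 533 of 635 pairs overlapped in Bdp1AA (83.9%, 80.8 to 86.7).

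Of 1565 member genes compared, 5 had a mean end that lay 20 nt or more downstream of its WT place in Bdp1AA (0.319%, 0.104 to 0.744) and 11 had one that lay as far upstream. Over all genes compared the shares were 2.33% and 0.902%, and among the 2817 coding genes that are no members 1.77% were distal. Of 1181 unchanged member genes simulated at this depth with counting error alone, 4 were called distal and 7 proximal. Calls at about this rate thus arise without any change of ends, and whether the genes named below are more than that was not tested. With the minimum as deposited, which admits positions of 2 reads in Bdp1AA but 11 in WT, 54 of 1767 members were distal (3.06%), against 6.96% of other coding genes. The 5 distal genes were HDA1, a histone deacetylase gene, PSF2, of the GINS replication complex, LNP1, of the endoplasmic reticulum, CDC43, of a protein-prenylating enzyme, and PPN1, for a polyphosphatase. HDA1 had 220 reads in WT and 64 in Bdp1AA, its mean end moved from 334 to 625 nt and its median end stayed at 231 nt. PSF2 moved by 67.1 nt, LNP1 by 43.2 nt, CDC43 by 34.3 nt and PPN1 by 33.4 nt. The largest proximal changes were -145 nt for the primase gene PRI1, -82.0 nt for SLD5, also of the GINS complex, and -44.6 nt for the splicing factor gene HSH49. In PRI1 the reads that ended up to 2804 nt past the near edge of the opposite gene in WT were not listed in Bdp1AA, where 234 reads remained against 441.

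The 5 largest rises of overlap in Bdp1AA ran from 42 to 305 nt. CDC43/LYS5 rose from 32 to 337 nt, as the median end of CDC43 moved from 72 to 381 nt while the share of its reads past the edge of LYS5 was 58.8% in WT and 61.2% in Bdp1AA. BUD21/ATX2 rose from 27 to 80 nt, CET1/ALG5 from 42 to 84 nt and YNL165W/IBD2 from 26 to 92 nt. YGL088W/MMS2 rose from 37 to 121 nt, but YGL088W fell below 60 reads once each end was counted only under its nearest gene, and snR10 lies in that gap. The largest falls were in ADE1/KIN3, from 127 to 67 nt, TRM13/TRM11, from -25 to -73 nt, and GCD1/RPN8, from 51 to 7 nt.

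With both Bdp1 and Rna15 depleted, a larger share of pairs overlapped, mostly through the wide gaps. Overlap was measured in 288 pairs, of which 267 overlapped (92.7%, 89.1 to 95.4). Among the 262 pairs measured in all 3 tables, the number overlapping was 195 in WT (74.4%), 193 in Bdp1AA (73.7%), and 242 with both factors depleted (92.4%, 88.5 to 95.3). In the 74 of these pairs with gaps of 241 to 300 nt, 32, 33 and 66 overlapped, and the median overlap was -7, -7 and 79 nt in the same order. In the 37 with gaps of 61 to 120 nt it was 94, 92 and 101 nt. Few pairs in narrow gaps could gain overlap. In WT, 8 of 8, 35 of 37 and 73 of 77 of these pairs overlapped at 0 to 60, 61 to 120 and 121 to 180 nt. The pairs measured in all 3 tables were also less overlapping in WT than all its pairs. At 241 to 300 nt the shares were 43.2% of 74 and 59.6% of 171. Against Bdp1AA, 111 of 263 pairs (42.2%) had an overlap larger by at least 20 nt and 3 had a smaller one by as much; 50 pairs became overlapping and only CBP1/NUC1 of those measured became separate. The median change was 14 nt with quartiles of 2 and 58.5 nt.

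**Figure D3:**
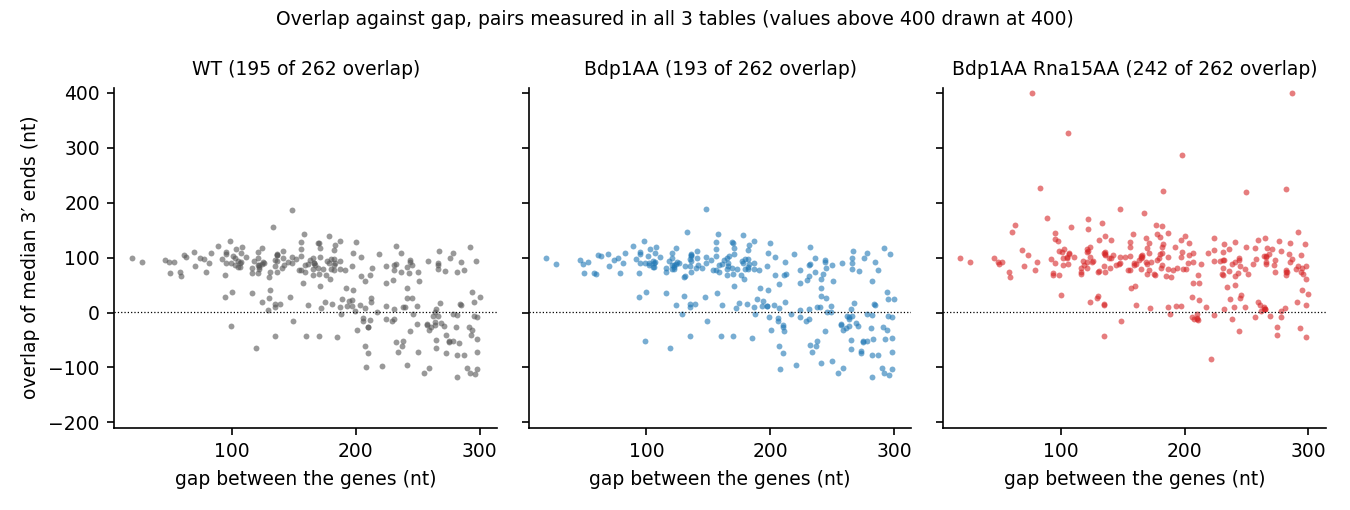
Overlap of the median 3′ ends (nt) against the gap between the genes (nt) for the 262 pairs measured in all 3 tables, 1 panel per strain, with values above 400 nt drawn at 400. The band near 90 nt spans all gaps, and the points at or below 0 nt number 67 in WT and 20 in Bdp1AA Rna15AA.

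The pairs shown at the top and the best-read pairs differed in how far their overlaps changed. RCL1, an 18S rRNA processing gene, and MDM12, of the contact site between mitochondria and endoplasmic reticulum, had overlaps of -117, -117 and 226 nt in WT, Bdp1AA and Bdp1AA Rna15AA. The median end of RCL1 moved from 103 to 234 nt and that of MDM12 from 62 to 274 nt. ARO2/RPL9A went from -12 and -9 nt to 114 nt, mostly through ARO2, whose median end moved from 104 to 215 nt, while that of RPL9A moved from 111 to 123 nt. ATP19/BRX1 went from 13 and 13 nt to 91 nt. By contrast HTB2/ECM15 had 7 nt in all 3 strains, RPS14B/RPS22A -49, -47 and -44 nt, and VMA16/RPN1, of the vacuolar ATPase and the proteasome, 95 nt in all 3. MIS1/RPL19A, shown without the motif, went from 67 and 68 nt to 126 nt, VMA21/VOA1 had 115, 115 and 120 nt and ALB1/RPE1 64, 64 and 74 nt. Of the pairs shown with the motif, PHO13/YPD1 had 97, 97 and 138 nt, INA1/PUN1 82, 82 and 93 nt and UTH1/SHB17 75, 75 and 87 nt. PUF4/PDR1 and BIR1/GRR1 had too few reads in Bdp1AA Rna15AA. HRP1/SMF1, chosen because Hrp1 acts beside Rna15, had 72, 71 and 72 nt.

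The 5 largest gains over Bdp1AA were in YLR297W/YHC1, RCL1/MDM12, TFG1/HGH1, CEG1/RSM23 and PEX27/TOA1. YHC1, for a U1 snRNP protein, had a median end at 70 nt in WT and Bdp1AA and at 741 nt in Bdp1AA Rna15AA, from 68 reads, and the overlap of the pair went from 77 to 750 nt. TFG1/HGH1 went from -88 to 219 nt; TFG1 encodes the large subunit of TFIIF. PEX27/TOA1 went from 83 to 327 nt through TOA1, a TFIIA subunit gene, whose median end moved from 75 to 319 nt. The 3 largest falls were -58 nt in CBP1/NUC1, which went from 53 to -5 nt, -39 nt in YNL165W/IBD2 and -21 nt in YLR146W-A/SMD3. Against WT the same 5 pairs gained most, and FCY1/YPR063C, at 127, 127 and 117 nt, took the third place among the falls.

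Mean ends moved downstream in a smaller share of member genes than of other coding genes, and the share was highest in the widest of the member gaps. In Bdp1AA Rna15AA against Bdp1AA, 284 of 954 member genes had a mean end at least 20 nt further downstream (29.8%, 26.9 to 32.8) and 10 one at least 20 nt further upstream. Over all genes compared the shares were 42.2% and 1.26%. Of the 1842 coding genes that are no members 48.9% were distal (46.6 to 51.2), and of 484 convergent genes with gaps above 300 nt 53.9% (49.4 to 58.4). The median change was 7.83 nt for members and 18.4 nt for coding genes that are no members. By gap, 23.8% of members at 0 to 100 nt, 21.1% at 101 to 200 nt and 41.8% at 201 to 300 nt were distal, against 55.6% of convergent genes at 301 to 500 nt. Against WT, 286 of 971 members were distal and 10 proximal, with 41.9% and 1.17% over all genes compared; both comparisons use the same Bdp1AA Rna15AA column.

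Tandem genes, whose downstream neighbour lies on the same strand, gave a different picture by each way of counting. With all listed ends, 173 of 367 tandem genes with gaps of 0 to 300 nt were distal (47.1%, 41.9 to 52.4). The tables list some ends under more than 1 gene of the same strand. Counted under the nearest gene alone, 57 of 317 were distal (18.0%, 13.9 to 22.7), below the 27.5% of members counted in that way. Counted likewise, 53.0% of convergent genes with gaps above 300 nt were distal, and 15.6%, 19.1% and 41.6% in the 3 member classes. The narrowest class moved most, from 34 of 143 genes with all listed ends to 22 of 141. By median instead of mean ends, the shares were 19.3% for members, 31.8% for convergent genes with wider gaps and 22.9% for tandem genes with gaps of 0 to 300 nt. The lower share in narrow convergent gaps thus held against wider convergent gaps under all 3 measures, and against tandem genes it did not hold when ends were counted under the nearest gene.

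**Figure D4:**
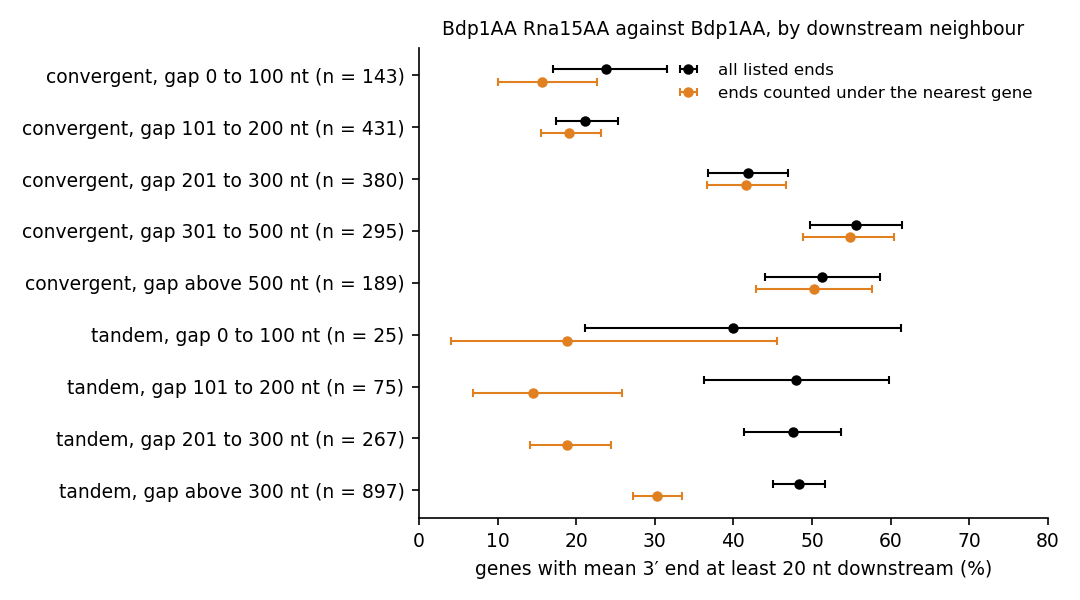
Share of genes (%) whose mean 3′ end lay at least 20 nt further downstream in Bdp1AA Rna15AA than in Bdp1AA, by the orientation of the downstream coding neighbour and the gap, with exact 95% intervals over genes (n for all listed ends). Narrow convergent gaps have lower shares than wide ones by both ways of counting, and the tandem classes differ between the 2 ways.

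Genes also differed in whether they could be measured. Of 887 members with at least 300 reads in Bdp1AA, 77.7% (74.8 to 80.4) kept at least 60 reads in Bdp1AA Rna15AA, against 82.2% (80.3 to 84.0) of 1693 coding genes that are no members. By gap the share was 68.4% at 0 to 100 nt, 76.4% at 101 to 200 nt and 83.4% at 201 to 300 nt. The part of this loss in the shares of distal genes was not tested. Signal was compared after the median log2 ratio over all genes was removed, which was -0.34 for Bdp1AA Rna15AA against Bdp1AA, -0.86 for Bdp1AA Rna15AA against WT and -0.51 for Bdp1AA against WT. Nothing is read from the balance of higher and lower genes, which this centring largely sets. Signal was at least 2-fold higher in 247 and at least 2-fold lower in 247 of the 954 members in Bdp1AA Rna15AA against Bdp1AA (25.9% each), near the 25% and 25.2% over all genes. Against WT it was higher in 244 and lower in 244 of 971, with 26.1% and 24.6% over all genes. In Bdp1AA against WT it was higher in 88 and lower in 157 of 1565 members, with 6.27% and 9.95% over all genes.

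Distal shares were also set beside the efficiency-element motif. Of 471 members with TATATA between 70 and 21 nt before the most used Bdp1AA end, 24.2% were distal in Bdp1AA Rna15AA (20.4 to 28.3), and of 483 without it 35.2% (30.9 to 39.6). Among other coding genes the shares were 45.2% (41.8 to 48.7) and 51.8% (48.7 to 54.9).

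The 5 members with the largest distal changes against Bdp1AA were SCM4, SEC27, CDC8, HMT1 and RPS9A. SCM4 had 1810, 1734 and 102 reads in WT, Bdp1AA and Bdp1AA Rna15AA, with mean ends at 176, 180 and 1546 nt. HMT1, for the main arginine methyltransferase, had mean ends at 182, 181 and 1329 nt but median ends at 183, 183 and 190 nt, and 32.9% of its 210 reads in Bdp1AA Rna15AA (26.6 to 39.7) ended beyond the opposite gene EDS1, with no end listed inside it. For SEC27, of the COPI coat, CDC8, for thymidylate kinase, and RPS9A, a small-subunit ribosomal protein gene, the far ends were also listed under a nearer gene. Without those ends the mean end of CDC8 in Bdp1AA Rna15AA was 71.0 nt instead of 1376 nt, that of RPS9A 178 nt instead of 1136 nt and that of SEC27 405 nt instead of 1512 nt, with 58, 87 and 39 reads left. The largest proximal changes were -65.3 nt in GLO3, an ARF GTPase-activating protein gene, -61.8 nt in APT2 and -47.1 nt in LYS12, of lysine synthesis. LYS12 went from 42.9% of reads past the edge of PRK1 in Bdp1AA to 5.96% in Bdp1AA Rna15AA.

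Many RNAs of these pairs entered the opposite gene already in WT. At least 10% of reads ended past the near edge of the opposite gene for 660 of 1792 member genes in WT (36.8%, 34.6 to 39.1), against 17% of all coding genes with a downstream neighbour. The latter include the members and the genes with gaps above 300 nt. The share depended on the gap: 84.6% of members at 0 to 100 nt, 37.3% at 101 to 200 nt and 12.1% at 201 to 300 nt. Both strands gave like shares, 36.4% on the plus strand and 37.2% on the minus strand. Entry was not particular to convergent genes. Of tandem genes in the same gap classes, 93.0%, 30.8% and 5.72% had at least 10% of reads past the edge of the neighbour. Ends listed under more than 1 gene count for each. In 141 of 823 pairs both partners entered, in 321 a single partner did and in 361 neither did.

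For 192 of 1792 members in WT, every listed read ended past the edge of the opposite gene. This was not particular to members. It held past the edge of the neighbour for 83 of 710 tandem genes with gaps of 0 to 300 nt. By the number of reads the members were led by NTF2, a nuclear transport factor gene, RPS9A, PHM8, for a phosphatase, RIB4, of riboflavin synthesis, and SHM1, for mitochondrial serine hydroxymethyltransferase. NTF2 had 19493 reads across a gap of 141 nt to YER010C, with a median end at 164 nt and none further than 55 nt into that gene. PHM8 had a gap of 3 nt to KRE29 and a median end at 218 nt. In Bdp1AA it held for 162 of 1574 members and 64 of 616 such tandem genes. The first 5 of these members were NTF2, PHM8, RIB4, YGL220W and SNZ1. In Bdp1AA Rna15AA it held for 101 of 996 members and 58 of 391 such tandem genes. The first 10 of these members were MBF1, SHP1, ERG9, PHM8, SNZ1, AIM25, GLO1, FMP25, PCS60 and SHM1. MBF1, for a transcriptional coactivator, had 95.2%, 94.9% and 100% of reads past the edge of MUM3, and SHP1, for a Cdc48 adaptor, had 100% in all 3 strains with a median end at 117 nt in each.

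**Figure D5:**
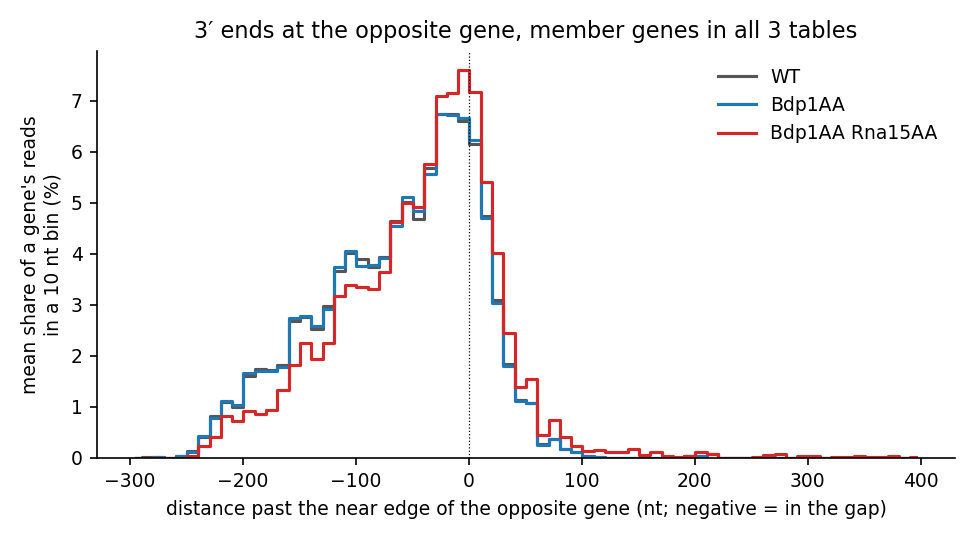
Mean share of a gene's reads (%) ending in each 10 nt bin around the near edge of the opposite gene (nt; negative values lie in the gap) for the 952 member genes measured in all 3 tables. The shares past the edge are 19.2% (WT), 19.1% (Bdp1AA) and 26.4% (Bdp1AA Rna15AA), and most such ends lie within 100 nt of the edge.

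In Bdp1AA 544 of 1574 members entered (34.6%, 32.2 to 37.0), against 15.9% of coding genes with a neighbour. At gaps of 0 to 100, 101 to 200 and 201 to 300 nt, 84.2%, 33.9% and 11.0% of members entered. Of tandem genes in these classes 95.1%, 27.3% and 5.37% did. Compared gene by gene with WT, the share past the edge was higher by at least 10 percentage points in 27 of 1565 members and lower in 42, that is 1.73% and 2.68%, with 0.849% and 1.16% over coding genes with a neighbour. Of the 1181 unchanged member genes simulated at this depth with counting error alone, 14 were called rising and 24 falling. None of the 1565 rose by 50 points. The 5 largest rises were 34.2 points in PUS5, 32.3 in YGR015C, 26.8 in TRS130, 20.3 in UGA3 and 19.9 in ATX2. PUS5, a mitochondrial pseudouridine synthase gene, had 0% of 99 reads past SHH4 in WT (0 to 3.66). In Bdp1AA it had 34.2% of 120 reads past that edge (25.8 to 43.4). A position needed 20 reads in WT and 17 in Bdp1AA to be kept. A weaker site past the edge would count as 0%, which these intervals do not cover. YGR015C, with 67 reads in WT and 65 in Bdp1AA, and UGA3, with 74 in WT, also had 0% in WT. TRS130 and ATX2 had 73.2% and 48.0% there. The part of this minimum in the rises was not tested.

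In Bdp1AA Rna15AA 425 of 996 members entered (42.7%, 39.6 to 45.8), against 26.3% of coding genes with a neighbour. In the same gap classes 86.6%, 45.1% and 23.4% of members entered, and 92.6%, 55.6% and 25.8% of tandem genes. Against Bdp1AA the share of reads past the edge rose by at least 10 points in 221 of 954 members (23.2%, 20.5 to 26.0). It fell by as much in 19, with 17.4% and 0.74% over coding genes with a neighbour. Against WT it rose in 224 of 971 and fell in 22, with 17.1% and 0.833%. Among the 263 pairs measured in both depletion tables, both partners rose in 12 and 1 partner in 96.

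Among genes with at least 200 reads in each table, the rises of largest size included several genes with most reads past the edge in Bdp1AA Rna15AA. These examples, here and in the next paragraph, were chosen after their values were seen. UBC9, the SUMO-conjugating enzyme gene, had 5.46% of 1906 reads past SYO1 in WT, 4.84% of 1363 in Bdp1AA and 88.4% of 526 in Bdp1AA Rna15AA (85.4 to 91.0), with its median end at 104, 104 and 260 nt. CEG1, for the mRNA capping enzyme, had no listed end past RSM23 in WT or Bdp1AA and 93.6% of 219 reads in Bdp1AA Rna15AA (89.5 to 96.5), with its furthest listed end 157 nt inside. BDF2, a bromodomain gene, had 20.3%, 14.9% and 98.8% past CBS1, with no listed end beyond 85 nt inside in any strain. In BDF2 the same furthest site was in use in all 3 strains and the shares of the sites differed.

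RHO1, for the GTPase of cell wall signalling, had 10.4% of 7875 reads past MRP2 in WT, 9.65% of 6113 in Bdp1AA and 73.6% of 4173 in Bdp1AA Rna15AA (72.2 to 74.9). RDL2, a rhodanese gene, had 8.31%, 7.45% and 85.3% past RRP36 with 2624, 2133 and 1779 reads. WBP1, of the oligosaccharyltransferase, had 28.2%, 28.8% and 97.3% past the prefoldin gene GIM4, and its furthest listed end was 38 nt inside in all 3 strains. In these genes WT and Bdp1AA had like shares. That Bdp1AA Rna15AA stood apart follows from their choice by large rises in that strain.

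The RNAs that entered mostly did not go far. Over the 952 members measured in all 3 tables, the mean share of reads past the edge was 19.2%, 19.1% and 26.4% in WT, Bdp1AA and Bdp1AA Rna15AA. The share more than 50 nt past the edge, which counts ends beyond the far end of the opposite gene too, was 2.26%, 2.23% and 5.94%, that more than 100 nt past it 0.233%, 0.235% and 2.56%, and that more than 500 nt past it 0.0244%, 0.0274% and 0.958%. Ends more than 500 nt past the edge were listed for 7, 7 and 63 of the 952 genes. Ends beyond the far end of the opposite gene were listed for 14 of 1792 members in WT and 14 of 1574 in Bdp1AA. In Bdp1AA Rna15AA they were listed for 28 of 511 convergent genes with gaps above 300 nt. For tandem genes with gaps of 0 to 300 nt, ends beyond the neighbour were listed there for 159 of 391. In Bdp1AA Rna15AA, 64 of 996 members had ends beyond the far end of the opposite gene. Ends more than 500 nt past the edge were listed for 64 of these 996 (6.43%), against 147 of 391 tandem genes with gaps of 0 to 300 nt (37.6%), for which the ends of the neighbour's own RNAs lie in the same range on the same strand. For members too, these depths were computed with all listed ends only. Ends listed under more than 1 gene made up 13.5% of member reads in Bdp1AA Rna15AA, against 3.81% in WT and 2.53% in Bdp1AA. Some far ends, as those of CDC8 and RPS9A above, were also listed under a nearer gene and may belong to its RNAs. Because a position needed 11 reads or more to be kept, reads scattered thinly over the opposite gene are not in these shares.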

How the data were processed

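Direct RNA libraries (9, 3 per strain) were prepared by the study with the SQK-RNA004 kit from total RNA, per the labels' protocols. The deposited tables list, for each strain pooled, a gene, the position of 3′ ends and a signal; the genome build is R64 per the submitters' processing notes, and no source used here names the aligner, the scaling or the minimum. Each deposited signal is a whole multiple of 0.04293 (WT), 0.05096 (Bdp1AA) or 0.07583 (Bdp1AA Rna15AA), within 0.001 of a multiple for 100% of values, and was divided by that step to give reads. The lowest values listed were 11, 2 and 11 reads, so a common minimum signal of 0.83413 was applied. Gene starts in the files count from 0, since adding 1 matched 5728 of 5737 tagged coding features to the reference; minus-strand ends were moved by 1 likewise, after which the base following the end was A at 68.2% and 68.3% of well-used ends on the plus and minus strands. A constant shift of 1 nt on both strands cannot be told from the data.

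For each gene with at least 60 reads, the read-weighted mean, median and most used distance past the annotated end, and the share of reads past the near edge of the downstream coding neighbour, were computed over all listed downstream ends. An end listed under several genes (3.81%, 2.53% and 13.5% of member reads) counted for each. Overlap is the number of nucleotides shared by the median ends; a shift of 20 nt and a share or rise of 10% were the limits used. Pooled columns allow no test over libraries, so counts and exact intervals are given. Members, gene lists and limits were chosen with earlier results of these data known. Named genes follow a rule on extremes: the 5 pairs with most reads, largest overlap and widest separation in WT, the 5 largest gains and 3 largest losses of overlap, the 10 (Bdp1AA Rna15AA) or 5 (WT, Bdp1AA) largest shares past the edge with ties at 100% ordered by reads, the 5 largest rises of that share in Bdp1AA, and the 5 largest distal and 3 largest proximal shifts per comparison, among pairs with 2 locus tags. Other names are said to be chosen after their values were seen, or serve as examples of a sequence.

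On tables simulated from the Bdp1AA ends with counting error alone, 197 of 197 genes shifted by 50 nt and 147 of 147 genes given entry were recovered at the depth of Bdp1AA Rna15AA against Bdp1AA; of 841 unchanged genes 2 were called distal, 1 proximal, 14 rising and 15 falling in entry. At the depth of Bdp1AA against WT, of 1181 unchanged genes 4 were called distal, 7 proximal, 14 rising and 24 falling in entry. The planted shift of 50 nt was well above the limit used for a shift. Its recovery therefore does not tell how often changes near that limit are missed. Recovery of shifts and of entry was not split by size of change or by reads per gene. It thus gives no sensitivity for small changes or for genes near the minimum number of reads. The simulation holds no spread between libraries. Python 3.11.15, numpy 2.4.6, pandas 2.3.3, scipy 1.17.1 and matplotlib 3.10.9 were used. Signal ratios were centred on the median log2 ratio over all genes compared.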

Additional observations from a re-analysis of the deposited data

How the results depend on the processing

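Of 129 counts recomputed under other settings, 103 stayed within 1.5 times the reported count. Genes with distal ends in Bdp1AA against WT, 5 as reported, were 54 with the minimum as deposited, where the Bdp1AA table lists positions of 2 reads and more, 9 with the doubled minimum, 15 at 30 reads or more, 12 with gaps up to 500 nt, 10 by median end, 30 at 10 nt and 2 at 50 nt. Genes gaining entry in that comparison, 27 as reported, were 41 at 30 reads or more, 63 at 5 points and 4 at 20 points. In Bdp1AA Rna15AA against Bdp1AA and against WT, distal genes were 184 and 187 by median end, 432 and 433 at 10 nt, 137 and 141 at 50 nt, 125 and 126 with gaps up to 200 nt and 448 and 451 with gaps up to 500 nt. Genes gaining entry were 132 and 128 at 20 points, and 143 and 146 with gaps up to 200 nt. Overlapping pairs in Bdp1AA Rna15AA were 159 of 175 at 120 reads or more and 160 of 163 with gaps up to 200 nt; these settings measure fewer pairs. The cause of the other moves was not tested. The share of distal members stayed below that of other coding genes in Bdp1AA Rna15AA against Bdp1AA under each setting run. It ran from 14.4% against 33.7% at 50 nt to 45.3% against 59.5% at 10 nt. Between these lay 19.3% against 23.9% by median end and 21.8% against 47.7% with gaps up to 200 nt. With ends under the nearest gene it was 27.5% against 34.1%.

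No paired analysis was possible because each strain is a single pooled column. For the same reason no library was left out in turn. Bdp1AA Rna15AA has the fewest reads, and 555 members are not listed there, against 122 in WT and 181 in Bdp1AA; the cause was not tested.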
